A study of Mus musculus with 9 samples.

Results

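Nrf1 and Nrf2 overexpression were set directly against each other in neonatal rat ventricular myocytes (NRVMs), cultured heart muscle cells of newborn rats. The comparison takes every gene of the deposited table that pairs these groups, 14908 genes in 6 of the 9 libraries of the series, 3 from cells given Adeno-Nrf1 and 3 from cells given Adeno-Nrf2. The remaining 3 libraries, from cells given the control virus Adeno-LacZ, which encodes a bacterial enzyme, serve only to show where a level lay without either factor. Hearts were taken from Sprague-Dawley pups aged 1 or 2 days, and the NRVMs were cultured for 48 h before infection at an MOI of 50. All 3 groups carried the same adenoviral backbone, in which a CMV promoter drives the coding region and a red fluorescent protein marks infected cells. The coding regions delivered were those of mouse Nrf1 and mouse Nrf2. The cells are of rat origin and the reads were aligned to the rat genome, although the organism field of the labels names the mouse. The labels do not say whether the 3 libraries of a group came from separate isolations, so the p-values measure only the spread between these samples, which may be technical.

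Nrf1 (encoded by *Nfe2l1*) and Nrf2 (encoded by *Nfe2l2*) are Cap'n'Collar leucine zipper transcription factors. Both pair with small Maf proteins and bind the antioxidant response element, a short DNA motif found near many genes for glutathione metabolism, detoxification and iron storage. They are controlled differently. Nrf1 is anchored in the endoplasmic reticulum and is processed into an active form when the proteasome falls behind, after which it induces the genes of the proteasome itself. Nrf2 is held in the cytoplasm and degraded through Keap1, and oxidants or electrophiles release it. The comparison asks which genes separate the factors when both are delivered in the same way.

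The 6 libraries held 8613988 to 11982503 reads counted on genes. The deposited group means were resolved into the whole reads of each library for 14907 of 14908 genes, and normalized counts (reads divided by the authors' size factor of the library) are given below in the order of the recovered libraries a, b and c, which carry no replicate number. On the log2 scale, libraries of the same group correlated across genes with Pearson's r between 0.9929 and 0.9938, against 0.9624 to 0.9648 for libraries of different groups. Genes are not independent replicates in these correlations. Replicate pairs differed by more than sampling noise, with a mean chi-square per degree of freedom of 1.5 to 1.62 in Nrf1 and 1.97 to 4.47 in Nrf2 pairs, so no library was a copy of another. A few genes stood apart in a single library, and those that touch a result are given with their values. Cardiomyocyte genes were abundant in all libraries, the summed normalized count of 27 sarcomere genes being 323807 to 328811 in Nrf1 and 337826 to 342935 in Nrf2 libraries. Markers of 23 leukocyte genes summed to 1758 to 1840 and 1841 to 1977, and those of 17 endothelial genes to 3806 to 3902 and 3374 to 3913. In RNA from whole cultures, fewer cells of a type and less RNA per cell cannot be told apart.

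Reads of *Nfe2l2* separated the groups most clearly. It had normalized counts of 2956, 3034 and 3008 in Nrf1 and 82351, 80908 and 70736 in Nrf2 (log2 fold change 4.70 ± 0.038, adjusted p = 2.84e-23), and its group means stood at 0.826 times LacZ in Nrf1 and 21.6 times LacZ in Nrf2. Reads of the mouse transgene and of the rat gene cannot be told apart in these counts. *Nfe2l1* was not analysed here, so the overexpression of Nrf1 was not checked at the RNA level. The row with the symbol *Nrf1* belongs to nuclear respiratory factor 1, an unrelated gene, and held 172, 178 and 176 in Nrf1 and 175, 180.1 and 187 in Nrf2 (log2 fold change 0.04 ± 0.084, adjusted p = 0.693). Among the partners and regulators of the Nrf factors, 3 of 6 genes tested were called higher in Nrf2 libraries, namely *Nfe2l2*, *Bach1* and *Maff*. *Bach1*, a repressor at the same DNA element, had 111, 123 and 127 in Nrf1 and 311, 353 and 323 in Nrf2 (log2 fold change 1.44 ± 0.086, adjusted p = 9.33e-11), and *Maff*, a small Maf partner, differed by 0.77 ± 0.08. *Keap1*, the adaptor that targets Nrf2 for degradation, was not called, with 1008, 1052 and 1035 in Nrf1 and 906, 899 and 833 in Nrf2 (log2 fold change -0.23 ± 0.043).

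Of 11354 genes with sufficient reads, 1236 were higher in Nrf2 and 521 were higher in Nrf1 libraries at an adjusted p under 0.05 and a fold change above 1.5 (limma on log2(normalized count + 1), two-sided, Benjamini-Hochberg adjustment over all genes tested). These are 10.9% and 4.59% of the genes tested, and they form the background for every count of list members below. Log2 fold changes are Nrf2 minus Nrf1 throughout, given ± SE with 3 libraries per group. Genes on the Nrf2 side reached larger differences. Over 4-fold differences were called for 162 genes higher in Nrf2 and 8 genes higher in Nrf1 libraries, and over 16-fold differences for 27 genes and 1 gene. Without the fold limit the directions were nearly balanced, with 3271 genes higher in Nrf2 and 3420 higher in Nrf1 libraries, and the median log2 fold change of all genes tested was -0.008. In 35 of the 1757 called genes the values of the groups overlapped in at least 1 library. Groups without overlap were thus the rule among called genes, and such statements on called genes below add no support to a call. In an exact permutation test, 3 libraries against 3 cannot give a p below 0.1, so calls rest on the model that shares information on the spread across genes.

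**Figure D1:**
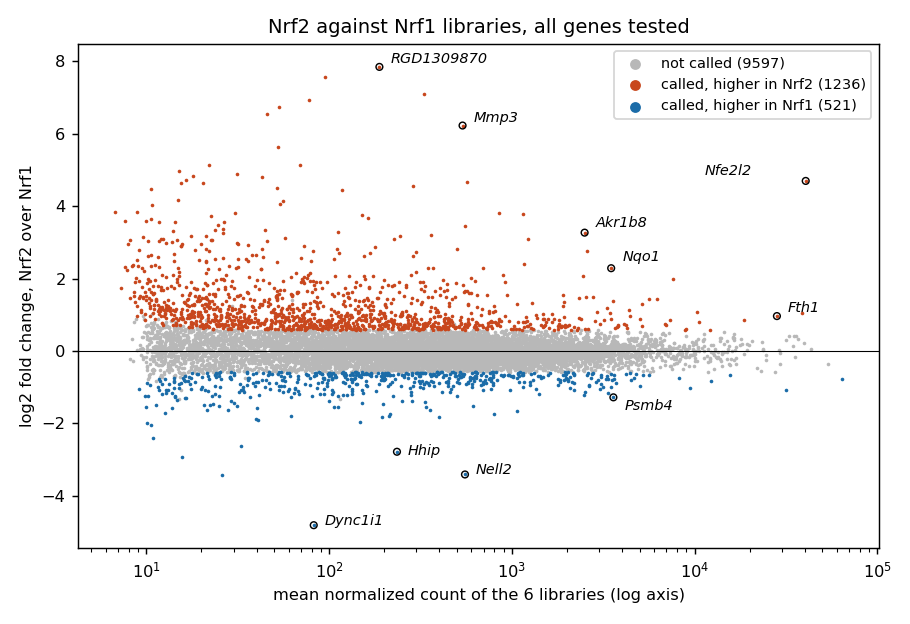
Log2 fold change of Nrf2 over Nrf1 libraries (vertical axis) against the mean normalized count of the 6 libraries (horizontal log axis) for the 11354 genes tested, with the 1236 genes called higher in Nrf2 in orange, the 521 called higher in Nrf1 in blue and the rest in grey. Each point is 1 gene and circles mark 10 genes named in the text. The points above the line reach further from 0 than those below it, and *Nfe2l2* lies alone at a high level and a large difference.

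The clearest group on the Nrf1 side was the 26S proteasome, the complex that degrades ubiquitin-tagged proteins and consists of a 20S core of alpha and beta rings capped by a 19S regulator. Of its 33 subunit genes, 24 were called higher in Nrf1 and 0 higher in Nrf2 libraries, with a median log2 fold change of -0.75 against -0.008 over all genes tested. At any fold, 32 of the 33 passed an adjusted p of 0.05 toward Nrf1. By part, the calls covered 4 of 7 alpha subunits, 5 of 7 beta subunits, all 6 ATPases of the 19S base and 9 of 13 other 19S subunits. The median differences of these parts were -0.77, -0.95, -0.68 and -0.73.

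*Psmb4*, a beta subunit, differed most within the complex, with 5094, 5059.6 and 5099 in Nrf1 and 2122, 2098 and 2064 in Nrf2 (log2 fold change -1.28 ± 0.026, adjusted p = 2.65e-17). *Psmc4*, an ATPase of the 19S base, had 3506, 3460.3 and 3434 in Nrf1 and 1581, 1507 and 1426 in Nrf2 (log2 fold change -1.20 ± 0.035). *Psmb3*, a further beta subunit, had 3399.8, 3399 and 3484 in Nrf1 and 1478, 1590.5 and 1643 in Nrf2 (log2 fold change -1.13 ± 0.036). The libraries of the groups did not overlap in any of these genes. *Psmb6*, the caspase-like catalytic subunit, had 1955, 1747 and 1791 in Nrf1 and 873, 886 and 896 in Nrf2 (log2 fold change -1.05 ± 0.042). Each of these subunits had over 2 times as many normalized counts in Nrf1 as in Nrf2 libraries. *Psmd13* and *Psmd2*, subunits of the 19S lid and base, differed by -1.06 ± 0.035 and -1.01 ± 0.021. *Psma1*, an alpha ring subunit, was at 4032, 3946 and 4015 in Nrf1 and 2139, 2095 and 2202 in Nrf2 (log2 fold change -0.90 ± 0.028, adjusted p = 1.29e-14). *Psmd1*, the largest 19S subunit, was at 10223, 10275 and 10266 in Nrf1 and 6284, 5997 and 5991 in Nrf2 (log2 fold change -0.75 ± 0.023, adjusted p = 7.14e-15). The 9 subunits that were not called included *Psmd6*, the single member with a higher mean in Nrf2 libraries (0.12 on the log2 scale), and the smallest difference toward Nrf1 was that of *Shfm1* (-0.16). Compared with LacZ, all 33 subunits had a higher group mean in Nrf1 and all 33 also in Nrf2 libraries, with median ratios of 2.15 and 1.24. *Psmb4* stood at 2.79 times LacZ in Nrf1 and 1.16 times LacZ in Nrf2, and *Psma1* at 2.59 times LacZ in Nrf1 and 1.4 times LacZ in Nrf2.

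**Figure D2:**
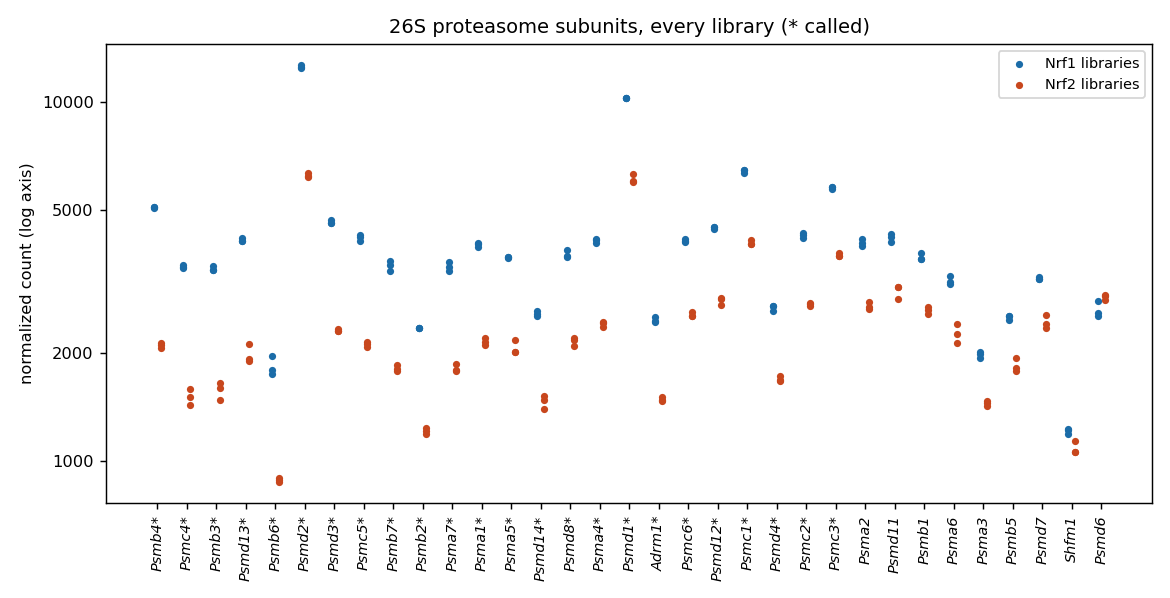
Normalized counts (vertical log axis) of the 33 subunits of the 26S proteasome in each of the 3 Nrf1 (blue) and 3 Nrf2 libraries (orange), ordered from the largest difference toward Nrf1 at the left, with an asterisk for the 24 subunits called. The blue points lie above the orange ones in every subunit but *Psmd6*, and the gap is several times the scatter of the replicates in most subunits.

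The other genes of protein turnover differed less. Of 12 proteasome assembly factors and activators, 0 were called, and the median was -0.16. The lowest adjusted p of these was that of *Psme4*, an activator of the 20S core, with 17520.0, 18074 and 17733 in Nrf1 and 13372, 13834 and 13227 in Nrf2 (log2 fold change -0.40 ± 0.021, under the fold limit). In the ubiquitin list, 2 of 16 genes were higher in Nrf1 libraries. *Uchl1*, a deubiquitinase best known from neurons, had 6602, 6539 and 6795 in Nrf1 and 3280.2, 3563 and 3289 in Nrf2 (log2 fold change -0.98 ± 0.031, adjusted p = 1.13e-14) and stood at 14.1 times LacZ in Nrf1 and 7.22 times LacZ in Nrf2. For endoplasmic reticulum-associated degradation (ERAD), the pathway that returns misfolded proteins to the cytosol, 3 of 23 genes were higher in Nrf1 and 0 higher in Nrf2 libraries, with a median of -0.22. All 3 encode cofactors of the segregase p97. *Ufd1l* had 2400.4, 2284 and 2460.2 in Nrf1 and 1299, 1305 and 1307 in Nrf2 (log2 fold change -0.87 ± 0.034, adjusted p = 2.64e-13), and *Ubxn4* and *Nploc4* differed by -0.78 ± 0.027 and -0.60 ± 0.032. *Vcp*, which encodes p97, was not called, with 17215, 17517 and 17296 in Nrf1 and 13355, 13419.5 and 13746 in Nrf2 (log2 fold change -0.36 ± 0.019). The call of *Nploc4* was lost without library b of Nrf1 (-0.58) or library b of Nrf2 (-0.58), values in brackets being the log2 fold change then.

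Of 35 autophagy genes, 4 were higher in Nrf1 and 0 higher in Nrf2 libraries, and the median was -0.10. *Atg2a*, a lipid transfer protein of the growing autophagosome, had 758, 775 and 771 in Nrf1 and 442, 471 and 452 in Nrf2 (log2 fold change -0.75 ± 0.049, adjusted p = 2.88e-10). *Atg4d*, a protease that processes Atg8 proteins, had 429, 365 and 368 in Nrf1 and 256, 258 and 247 in Nrf2 (log2 fold change -0.60 ± 0.073), a call lost without library a of Nrf1 (-0.53). *Atg16l2* and *Atg14*, a subunit of the lipid kinase that starts autophagosome formation, differed by -1.12 ± 0.18 and -0.65 ± 0.11. The call of *Atg14* was lost without library c of Nrf1 (-0.57) or library a of Nrf2 (-0.58). *Atg13*, a scaffold of the initiating kinase, was not called, with 1783, 1714 and 1779 in Nrf1 and 1308, 1371 and 1355 in Nrf2 (log2 fold change -0.39 ± 0.035). *Sqstm1*, the cargo receptor p62, had 9836, 10125 and 10408 in Nrf1 and 12138, 12669 and 11757 in Nrf2 (log2 fold change 0.27 ± 0.026), under the fold limit in the opposite direction. In the lysosomal list 2 of 26 genes were higher in Nrf2 and 2 higher in Nrf1 libraries, the latter being the proton pump subunit *Atp6v1h* (-0.66) and acid alpha-glucosidase *Gaa* (-0.65).

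Redox and detoxification genes lay mostly on the Nrf2 side. In the list of quinone, carbonyl and aldehyde detoxification, 13 of 27 genes were higher in Nrf2 and 0 higher in Nrf1 libraries, with a median of 0.42. *Nqo1*, the quinone reductase used as a standard readout of Nrf2, had 1212, 1175 and 1171 in Nrf1 and 5621, 5729 and 6033 in Nrf2 (log2 fold change 2.29 ± 0.032, adjusted p = 8.24e-20). The aldo-keto reductase *Akr1b8* had 434, 475 and 499 in Nrf1 and 4506, 4442 and 4628 in Nrf2 (log2 fold change 3.27 ± 0.044, adjusted p = 6.55e-20). Both genes differed by far more than the spread of their replicates. *Ptgr1*, which reduces reactive enals, had 656, 659 and 668 in Nrf1 and 4389.8, 4599 and 4449.6 in Nrf2 (log2 fold change 2.76 ± 0.033). *Akr1b1*, aldose reductase, had 3141, 3067 and 2954 in Nrf1 and 12039.9, 12122 and 12042 in Nrf2 (log2 fold change 1.98 ± 0.025). *Akr7a3* (2.70), an aldehyde reductase, and *Aldh1a7* (2.45), an aldehyde dehydrogenase, differed in the same direction at lower levels. Ratios to LacZ in Nrf1 and Nrf2 libraries were 1.37 and 6.74 for *Nqo1*, 0.573 and 5.55 for *Akr1b8* and 1.02 and 6.93 for *Ptgr1*.

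Of 19 glutathione S-transferases, enzymes that couple glutathione to electrophiles, 8 were higher in Nrf2 and 1 was higher in Nrf1 libraries. The alpha class led. *Gsta1* had 87.5, 84.9 and 103 in Nrf1 and 994, 1030.2 and 999.9 in Nrf2 (log2 fold change 3.45 ± 0.076, adjusted p = 7.54e-17). *Gsta4* had 246, 247 and 331 in Nrf1 and 871, 917 and 813 in Nrf2 (log2 fold change 1.67 ± 0.088). *Gsta2* was at 0, 3.07 and 1.2 in Nrf1 and 64.1, 53.9 and 64.3 in Nrf2 and was almost without reads in the Nrf1 libraries. *Gsta3* was at 0.994, 9.2 and 2.4 in Nrf1 and 44.2, 49.4 and 41.8 in Nrf2, with a log2 fold change of 3.49 ± 0.44 that became 4.14 without library b of Nrf1. *Gsta2* and *Gsta3* were under 1 CPM in every Nrf1 library and were tested only through their Nrf2 reads. A call of either gene could point only toward Nrf2. Members of this family are close in sequence, and reads that fit several of them can have been split by the counting. *Gstm1* (1.49) and the microsomal *Mgst2* (1.31) were also higher in Nrf2 libraries. *Gstt3*, of the theta class, was the exception, with 48.7, 40.9 and 43.2 in Nrf1 and 13.9, 19.2 and 27.5 in Nrf2 (log2 fold change -1.14 ± 0.24). *Gstt3* was chosen after its value was seen. The median of the whole family was 0.09, since 10 of its 19 genes were not called.

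In the supply of glutathione, 4 of 21 genes were higher in Nrf2 libraries and 0 higher in Nrf1 libraries. *Slc7a11*, the cystine importer, had 412, 344 and 363 in Nrf1 and 2055, 1958 and 1849 in Nrf2 (log2 fold change 2.39 ± 0.058, adjusted p = 3.26e-16). *Gclm*, the modifier subunit of the rate-limiting enzyme, had 854, 835 and 899 in Nrf1 and 1596, 1532 and 1506 in Nrf2 (log2 fold change 0.84 ± 0.041). The glutaredoxin *Glrx* had 93.5, 75.7 and 58.7 in Nrf1 and 251, 248 and 259 in Nrf2 (log2 fold change 1.75 ± 0.13). *Ggt5*, which breaks down glutathione, was called with overlapping libraries (24.9, 10.2 and 15.6 in Nrf1 and 24.3, 36.6 and 30.6 in Nrf2), and its call was lost without library b of Nrf1 (0.58) or library b of Nrf2 (0.74). Of 16 genes of the thioredoxin system, superoxide dismutases and catalase, 4 were higher in Nrf2 libraries. *Txnrd1*, thioredoxin reductase, had 3064, 2971 and 3040.5 in Nrf1 and 7987, 8489 and 8211 in Nrf2 (log2 fold change 1.44 ± 0.026, adjusted p = 4.83e-18). *Srxn1*, sulfiredoxin, had 2297, 2241 and 2178 in Nrf1 and 4624, 4711 and 4653 in Nrf2 (log2 fold change 1.06 ± 0.028). *Prdx4*, a peroxiredoxin of the endoplasmic reticulum, differed by 0.63. *Cat*, catalase, had 3559, 3648 and 3361 in Nrf1 and 6568, 6639 and 6337 in Nrf2 (log2 fold change 0.89 ± 0.03, adjusted p = 3.13e-14), at 2.16 times LacZ in Nrf1 and 4.02 times LacZ in Nrf2.

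Not every antioxidant gene separated the factors. *Hmox1*, heme oxygenase, which breaks heme down to iron, carbon monoxide and biliverdin, had 2853, 2881 and 2909.8 in Nrf1 and 2644, 2658 and 2625 in Nrf2, a difference of -0.12 ± 0.027 on the log2 scale (adjusted p = 0.000684) that was under the fold limit and pointed toward Nrf1. Its group means were 2.45 times LacZ in Nrf1 and 2.26 times LacZ in Nrf2. *Sod1*, the cytosolic superoxide dismutase, had 4281, 4107 and 4272 in Nrf1 and 3507, 3527 and 3571 in Nrf2 (log2 fold change -0.26 ± 0.026, adjusted p = 1.58e-07). *Sod2*, the mitochondrial form, had 1730.2, 1817 and 1705 in Nrf1 and 2576, 2569 and 2530.4 in Nrf2 (log2 fold change 0.55 ± 0.032, adjusted p = 7.08e-11). Neither passed the fold limit, and their differences pointed in opposite directions. In the list of heme and iron handling, 5 of 21 genes were higher in Nrf2 and 2 higher in Nrf1 libraries. *Fth1*, the ferritin heavy chain that stores iron, had 19309, 18659 and 19303 in Nrf1 and 37441, 37242 and 37100.3 in Nrf2 (log2 fold change 0.96 ± 0.017, adjusted p = 4.17e-18), at 1.66 times LacZ in Nrf1 and 3.26 times LacZ in Nrf2. *Slc40a1*, the iron exporter ferroportin, had 124, 149 and 116 in Nrf1 and 286, 253 and 263 in Nrf2 (log2 fold change 1.04 ± 0.098). *Steap3*, an endosomal iron reductase, and *Fech*, the last enzyme of heme synthesis, differed by 0.94 and 0.72. On the other side, *Urod*, an earlier enzyme of heme synthesis, had 664, 618 and 661 in Nrf1 and 372, 394 and 404 in Nrf2. *Hfe2*, hemojuvelin, had 1218, 1126 and 1131 in Nrf1 and 738, 734 and 738 in Nrf2, and stood far above LacZ in both groups (12.8 and 8.19).

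Genes that supply NADPH, the electron donor of these reductases, lay on the same side, with 9 of 20 higher in Nrf2 and 0 higher in Nrf1 libraries and a median of 0.40. *Me1*, malic enzyme, had 3017, 3022 and 2934 in Nrf1 and 5744, 6071 and 5685 in Nrf2 (log2 fold change 0.96 ± 0.028, adjusted p = 4.4e-15). In the pentose phosphate pathway, *Tkt*, transketolase, had 2473, 2487 and 2392 in Nrf1 and 4529, 4563 and 4355 in Nrf2 (log2 fold change 0.87 ± 0.028) and *Taldo1*, transaldolase, differed by 0.87 ± 0.033. The replicates of all these enzymes lay close together. *Nadk2*, the mitochondrial NAD kinase, had 329, 326 and 350.1 in Nrf1 and 809.9, 798 and 820.3 in Nrf2 (log2 fold change 1.27 ± 0.052). Of 9 ABC efflux transporters, *Abcc4* and *Abcb1a* were called. *Abcc4*, which exports drugs and cyclic nucleotides, had 622, 658 and 572 in Nrf1 and 1198, 1277 and 1161 in Nrf2 (log2 fold change 0.97 ± 0.052, adjusted p = 2.09e-11), *Abcb1a* differed by 1.00 ± 0.14, and *Abcc1* was under the fold limit (0.54). Metallothioneins, small zinc-binding proteins, were low in both groups, and *Mt1a* and *Mt2A* were higher in Nrf2 libraries (1.65 and 1.40).

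**Figure D3:**
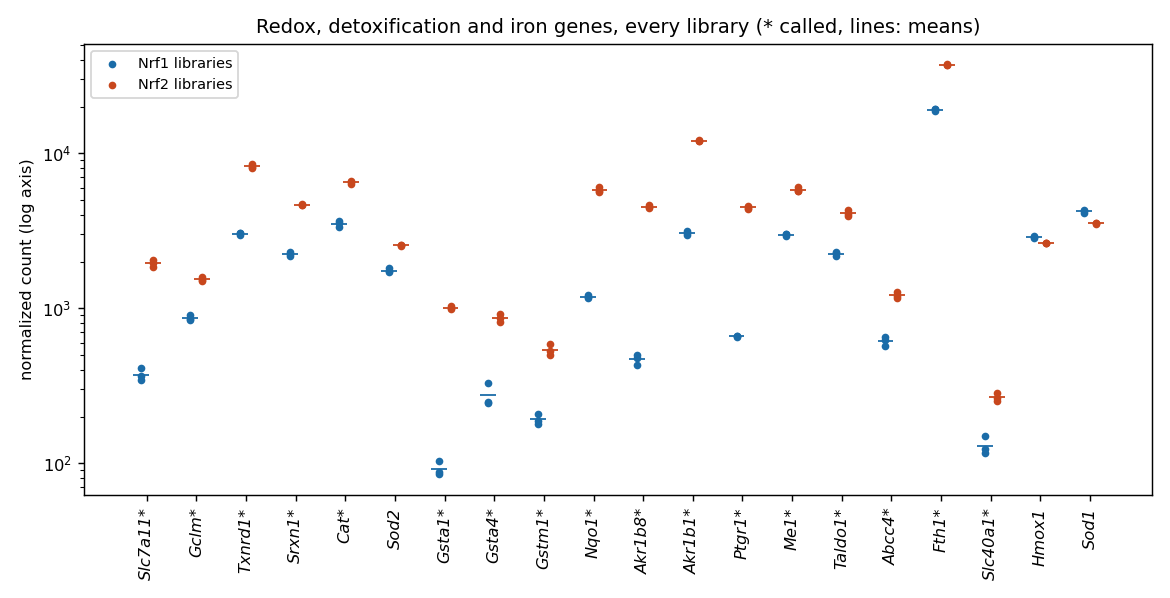
Normalized counts (vertical log axis) of 20 genes of redox balance, detoxification and iron handling in each of the 3 Nrf1 (blue) and 3 Nrf2 libraries (orange), with short lines at the group means and an asterisk for called genes. The orange points lie above the blue ones in 18 genes, and *Hmox1* and *Sod1* at the right show the opposite order with a small gap. The 20 genes were picked by hand and are no measure of their lists. *Gstt3*, *Urod* and *Hfe2*, which were called higher in Nrf1 libraries, are not shown.

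The genes with the largest differences on the Nrf2 side were close to silent in Nrf1 libraries. Of called genes whose mean reached 100 normalized counts in one of the groups, *RGD1309870* differed most, with 0.994, 0 and 1.2 in Nrf1 and 376, 378 and 373 in Nrf2 (adjusted p = 4.72e-14). It had 2 reads in all Nrf1 and 1213 in all Nrf2 libraries, a ratio of 529 per size factor with an exact 95% interval from 146 to 4376 for counting error. *Zfp352*, a zinc finger protein, had 0, 0 and 0 in Nrf1 and 186, 215 and 169 in Nrf2, at least 177-fold higher in Nrf2 when the 0 is set to 3 reads over the group. *Crisp1*, a cysteine-rich secretory protein of the epididymis, had 4.97, 3.07 and 3.6 in Nrf1 and 663, 604 and 711 in Nrf2 (log2 fold change 7.10 ± 0.17, adjusted p = 1.91e-16). These 3 genes had next to no reads in any Nrf1 library and the replicates of Nrf2 lay close together. *Mepe*, an extracellular matrix phosphoglycoprotein of bone, had 0, 0 and 0 in Nrf1 and 98.7, 117 and 104 in Nrf2, at least 99.4-fold higher in Nrf2 libraries. *Aknad1* and *RGD1304770*, with 1 and 3 reads in all Nrf1 libraries, were 437 times (78.1 to 17304) and 97.5 times (33.1 to 475) higher by the same measure. *Brinp3* differed by 5.15. Each of these genes, from *RGD1309870* to *Brinp3*, was under 1 CPM in every Nrf1 library and was tested only through its Nrf2 reads. Their calls could therefore point only toward Nrf2.

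Several of the other leading genes encode secreted or surface proteins. *Mmp3*, *Mmp10*, *Nptx2* and *Slc10a4* had more reads in Nrf1 libraries than any of the genes from *RGD1309870* to *Brinp3*. *Mmp3*, the matrix metalloproteinase stromelysin 1, had 16.9, 21.5 and 5.99 in Nrf1 and 1046, 991 and 1138 in Nrf2 (log2 fold change 6.23 ± 0.27, adjusted p = 8.01e-13). *Mmp10*, stromelysin 2, had 9.94, 11.2 and 7.19 in Nrf1 and 228, 197 and 253 in Nrf2 (log2 fold change 4.45 ± 0.18). *Nptx2*, a neuronal pentraxin, had 31.8, 47 and 48 in Nrf1 and 1049, 1152 and 1062 in Nrf2 (log2 fold change 4.67 ± 0.12). *Slc10a4*, a transporter of synaptic vesicles, had 21.9, 35.8 and 14.4 in Nrf1 and 511, 642 and 501 in Nrf2 (log2 fold change 4.55 ± 0.21). *Slpi*, a secreted protease inhibitor, *Cers3*, a ceramide synthase, and *Cd52*, a surface glycoprotein of lymphocytes, differed by 4.50, 4.14 and 4.07. *Slpi*, *Cers3* and *Cd52* were under 1 CPM in every Nrf1 library and were tested only through their Nrf2 reads, so their calls could point only toward Nrf2. *Mmp3* and *Slpi* lay below LacZ in Nrf1 and above LacZ in Nrf2 libraries, at ratios of 0.265 and 19 and of 0.18 and 5.21.

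A total of 637 genes had no read in any Nrf1 library and 265 had none in any Nrf2 library, and 6 of the former and 0 of the latter were called. Such genes could be tested only through the other group, which fixed the direction of any call. The Nrf2 libraries were also deeper, with 10216074 to 11982503 reads against 8613988 to 10375045 in Nrf1 libraries. The part of depth in these counts was not tested. After *Zfp352* and *Mepe*, *Lrp2bp* was highest, at 0, 0 and 0 in Nrf1 and 86.6, 97.8 and 90.8 in Nrf2, at least 85.6-fold higher in Nrf2 libraries. *Apcs*, serum amyloid P, *Trpv5*, an epithelial calcium channel, and *Hsd17b2*, a steroid dehydrogenase, were at least 19.8, 12.5 and 12.1 times higher in Nrf2, *Hsd17b2* with too few reads to be tested. *Ogn*, osteoglycin, was at 0, 0 and 0 in Nrf1 and 12.1, 119.7 and 1.02 in Nrf2, so its mean in Nrf2 rested on library b, and it was not tested. Of genes without reads in Nrf2 libraries, *Pdcd5* was at 0.994, 94.1 and 169 in Nrf1 and 0, 0 and 0 in Nrf2 and was not tested. Its Nrf1 libraries differed widely among themselves, and the LacZ libraries held 95, 69 and 87 reads. The next, *Tmem54*, was at 3.98, 3.07 and 3.6 in Nrf1 and 0, 0 and 0 in Nrf2, at least 3.8-fold higher in Nrf1 libraries, and *Slc6a20* and *Sncb* had lower means.

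On the Nrf1 side, *Dync1i1*, an intermediate chain of the dynein motor, showed the largest difference, with 164, 163 and 152 in Nrf1 and 6.93, 3.66 and 4.08 in Nrf2 (log2 fold change -4.81 ± 0.23, adjusted p = 2.95e-12). It stood at 25.1 times LacZ in Nrf1 and 0.773 times LacZ in Nrf2. *Dync1i1* was under 1 CPM in every Nrf2 library and was tested only through its Nrf1 reads, so its call could point only toward Nrf1. *Nell2*, a secreted glycoprotein of neural tissue, had 1049, 1023 and 964 in Nrf1 and 100.5, 95.1 and 87.7 in Nrf2 (log2 fold change -3.41 ± 0.07, adjusted p = 2.99e-17), at ratios to LacZ of 10.8 and 1.01. *Hhip*, a surface protein that captures hedgehog ligands, had 401, 418 and 412 in Nrf1 and 63.2, 63.1 and 51 in Nrf2 (log2 fold change -2.78 ± 0.10, adjusted p = 7.56e-14), at 3.18 times LacZ in Nrf1 and 0.461 times LacZ in Nrf2. In these 3 genes every Nrf1 library lay far above every Nrf2 library. The remaining dynein and kinesin genes did not share the difference of *Dync1i1*, 1 of the other 19 being called, *Kif26b* in the opposite direction (0.65), a call lost without library c of Nrf2 (0.53).

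Secreted growth factors and keratins followed. *Mstn*, myostatin, the inhibitor of muscle growth, had 213, 249.5 and 246 in Nrf1 and 52.8, 66.7 and 59.2 in Nrf2 (log2 fold change -1.97 ± 0.12, adjusted p = 7.08e-11). *Bmp3*, a further ligand of that family, had 511, 531 and 574 in Nrf1 and 169, 172 and 175 in Nrf2 (log2 fold change -1.64 ± 0.068). *Krt8*, a keratin of simple epithelia, had 614, 641 and 621 in Nrf1 and 180.2, 162 and 187 in Nrf2 (log2 fold change -1.82 ± 0.068). Its partner keratin *Krt18* had 883, 891 and 930.4 in Nrf1 and 304, 308 and 335 in Nrf2 (-1.51 ± 0.054), and *Krt80* differed by -1.55. *Mat1a*, which makes S-adenosylmethionine, had 293, 319 and 295 in Nrf1 and 78.8, 106 and 74.5 in Nrf2 (log2 fold change -1.81 ± 0.12). All of these genes kept their groups apart in every library. *Abca2*, a lipid transporter of endosomes and lysosomes, had 1239, 1259 and 1200.1 in Nrf1 and 366, 352 and 397 in Nrf2 (log2 fold change -1.73 ± 0.051). *Rab3d*, a GTPase of secretory vesicles, had 1619.8, 1630.0 and 1587 in Nrf1 and 534, 503 and 488 in Nrf2 (log2 fold change -1.66 ± 0.044). *Tmem179* (-1.78), *S100a13* (-1.74), *Ckmt1b*, a mitochondrial creatine kinase (-1.55), and *Dnajc22* (-1.54) completed the 15 largest differences. *Krt8*, *Krt18* and *Mat1a* were above LacZ in both groups, at ratios of 6.04 and 1.71, 6.88 and 2.42 and 9.03 and 2.6, whereas *Bmp3* was above LacZ in Nrf1 and below it in Nrf2 libraries (1.44 and 0.462).

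Interferon-stimulated genes, the antiviral program that cells switch on in response to interferon, differed across nearly the whole list. Of 42 genes, 37 were higher in Nrf2 and 0 higher in Nrf1 libraries, and the median was 1.52. *Mx2*, an antiviral GTPase, had 102, 121 and 156 in Nrf1 and 994, 886 and 761 in Nrf2 (log2 fold change 2.80 ± 0.12, adjusted p = 5.12e-13). *Usp18*, which removes the ubiquitin-like modifier ISG15, had 66.6, 73.6 and 93.5 in Nrf1 and 597, 514 and 448 in Nrf2 (log2 fold change 2.73 ± 0.12, adjusted p = 9.63e-13). *Oas1b*, an oligoadenylate synthetase family member, had 44.7, 52.2 and 32.4 in Nrf1 and 310.1, 255 and 241 in Nrf2 (log2 fold change 2.63 ± 0.15). *Bst2*, tetherin, had 57.7, 65.4 and 75.5 in Nrf1 and 317, 278 and 245 in Nrf2 (log2 fold change 2.06 ± 0.12), and *Rtp4* and *Oas1a* differed by 2.59 and 2.58. No Nrf1 library reached any Nrf2 library in these genes. *Oas1a* was under 1 CPM in every Nrf1 library and was tested only through its Nrf2 reads, so its call could point only toward Nrf2. All 42 genes lay below LacZ in both groups, with median ratios of 0.124 in Nrf1 and 0.368 in Nrf2 libraries. *Mx2* was at 0.0287 times LacZ in Nrf1 and 0.201 times LacZ in Nrf2.

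The immunoproteasome and class I antigen processing list, which is also induced by interferon, ran opposite to the constitutive proteasome, with 4 of 10 genes higher in Nrf2 and 0 higher in Nrf1 libraries. Of the 4, *Tap2* (1.42) was under 1 CPM in every Nrf1 library and was tested only through its Nrf2 reads. Its call could therefore point only toward Nrf2. The catalytic subunit *Psmb8* had 17.9, 34.8 and 21.6 in Nrf1 and 52.8, 40.2 and 50 in Nrf2 (log2 fold change 0.96 ± 0.23), and its companion *Psmb9* had 66.6, 66.5 and 59.9 in Nrf1 and 103, 112 and 100 in Nrf2 (0.70 ± 0.12). The peptide transporter gene *Tap1* had 371, 408 and 366 in Nrf1 and 635, 558 and 609 in Nrf2 (log2 fold change 0.65 ± 0.062, adjusted p = 6.29e-08). *B2m*, the light chain of class I molecules, was under the fold limit (4106, 3991 and 4339 in Nrf1 and 6268, 5651 and 5869.8 in Nrf2, 0.52). Of 42 chemokines and cytokines listed, 23 had enough reads to be tested, and 6 of these were higher in Nrf2 and 1 was higher in Nrf1 libraries. Of the 6, *Cxcl13*, *Il18* and *Cxcl11* were under 1 CPM in every Nrf1 library and were tested only through their Nrf2 reads, so a call could point only toward Nrf2. *Cxcl10* had 181, 183 and 177 in Nrf1 and 508, 429.6 and 449 in Nrf2 (log2 fold change 1.35 ± 0.074, adjusted p = 2.71e-11), while *Cxcl13*, *Cxcl1*, *Il18* and *Cxcl11* were called at low levels (2.81, 1.77, 1.63 and 1.27). *Ctf1*, cardiotrophin 1, was the member on the Nrf1 side, with 31.8, 38.9 and 25.2 in Nrf1 and 9.53, 4.57 and 18.4 in Nrf2. In the list of NF-kB and Toll-like receptors, *Tlr6*, *Tlr7*, *Vcam1* and *Tlr4* were higher in Nrf2 libraries (3.33, 1.96, 1.54 and 0.89), *Nfkbib* was higher in Nrf1 libraries (-0.62), and *Nfkb1* was not called (-0.10). Leukocyte markers were scarce, with 3 of 17 genes called higher in Nrf2 libraries (*Cd68* 0.88, *Fcer1g* 0.68 and *C1qa* 0.62) and summed levels that met near 1840 in both groups. *Cd163*, *C1qc*, *Fcgr2a*, *Cd3e* and *Cd79b* were under 10 normalized counts in every library. *Csf1r* and *Lyz2*, abundant macrophage genes, had differences of -0.36 and -0.31. The calls were lost for *Nfkbib* without library b of Nrf1 (-0.56), for *Fcer1g* without library c of Nrf1 (0.57) and for *C1qa* without library c of Nrf1 (0.40), library b of Nrf2 (0.54) or library c of Nrf2 (0.62). The call of *C1qa* was also lost with a pseudocount of 5 and without the filter on low values. The part of leukocytes in the interferon and cytokine differences was not tested.

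Many extracellular matrix genes were higher in Nrf2 libraries, most of them below LacZ in both groups. Of 17 collagens, 10 were higher in Nrf2 and 2 higher in Nrf1 libraries, with a median of 0.75. The fibrillar *Col1a1* had 25147, 26379 and 24127 in Nrf1 and 54266, 50033 and 51601 in Nrf2 (log2 fold change 1.04 ± 0.028, adjusted p = 1.16e-15), and *Col3a1* had 6529, 6786 and 6551 in Nrf1 and 14289, 13378 and 14104 in Nrf2 (log2 fold change 1.07 ± 0.025). *Col11a1*, a minor fibrillar chain, had 1411, 1367 and 1259 in Nrf1 and 3718, 3812 and 3713 in Nrf2 (1.48 ± 0.037). *Col1a1* and *Col3a1* stood at ratios to LacZ of 0.262 and 0.543 and 0.238 and 0.502, whereas *Col11a1* was above LacZ in both groups (1.23 and 3.44). *Col1a2* varied widely between replicates (92.5, 24.5 and 16.8 in Nrf1 and 253, 197 and 62.2 in Nrf2) and its libraries overlapped. Its log2 fold change of 2.08 ± 0.47 became 2.79 without library a of Nrf1 and 2.69 without library c of Nrf2. In the list of matricellular proteins, proteoglycans and elastic fibres, 14 of 36 genes were higher in Nrf2 and 2 higher in Nrf1 libraries. *Mfap5*, a microfibril protein, had 25.9, 15.3 and 20.4 in Nrf1 and 295, 269.7 and 286 in Nrf2 (log2 fold change 3.75 ± 0.16, adjusted p = 7.27e-13). *Vcan*, versican, had 1399, 1511 and 1463 in Nrf1 and 4183, 3922 and 4192 in Nrf2 (log2 fold change 1.49 ± 0.035), and *Nov*, a CCN family protein, differed by 1.54 ± 0.06. Elastin was called but uneven, *Eln* being at 827, 528 and 456 in Nrf1 and 2504, 609 and 9845 in Nrf2, with overlapping groups. Its log2 fold change of 2.08 ± 0.57 became 3.09 without library b of Nrf2 and 1.08 without library c of Nrf2. *Fbln5*, which helps to assemble elastic fibres, was at 105, 96.1 and 86.3 in Nrf1 and 191, 119 and 408 in Nrf2. On the Nrf1 side, *Ctgf*, a CCN family growth factor, had 18925, 19019.6 and 18975 in Nrf1 and 11688, 11722 and 12701 in Nrf2 (log2 fold change -0.66 ± 0.025, adjusted p = 2.07e-13). Fibronectin, *Fn1*, chosen after its value was seen, had 80632, 83986 and 78044 in Nrf1 and 47397, 46038 and 49043 in Nrf2 (log2 fold change -0.77 ± 0.023, adjusted p = 6.8e-15).

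Of 23 metalloproteinases and their inhibitors, 7 were higher in Nrf2 and 2 higher in Nrf1 libraries. Beside *Mmp3* and *Mmp10*, *Mmp2*, gelatinase A, had 2742, 2879.5 and 2609 in Nrf1 and 6189.7, 5863 and 6097 in Nrf2 (log2 fold change 1.14 ± 0.033, adjusted p = 3.15e-15), at 0.298 times LacZ in Nrf1 and 0.66 times LacZ in Nrf2. *Mmp13*, a collagenase, had 1.99, 11.2 and 9.59 in Nrf1 and 56.3, 53.9 and 56.1 in Nrf2 (log2 fold change 2.95 ± 0.39), and the difference was 2.31 without library a of Nrf1, where it was lowest. *Adamts2* and *Mmp9* differed by 1.25 and 1.12. Fibroblast markers, which share *Col1a1*, *Col3a1* and *Dcn* with the matrix lists, moved with these genes. Of 17 tested, 7 were higher in Nrf2 and 1 was higher in Nrf1 libraries, and their summed level was 59500 to 62127 in Nrf1 and 94215 to 99950 in Nrf2 libraries. Without the collagens the sum of 16 markers was 28822 to 29341 and 30804 to 33082, so the ranges still did not meet but lay much closer. *Dpt*, dermatopontin (11.9, 10.2 and 8.39 in Nrf1 and 69.3, 55.8 and 60.2 in Nrf2, 2.49), and the receptor *Pdgfra* (91.5, 108 and 77.9 in Nrf1 and 220.0, 165 and 195 in Nrf2, 1.06) were higher in Nrf2 libraries, and *Tcf21*, a transcription factor of cardiac fibroblasts, was higher in Nrf1 libraries (45.7, 35.8 and 46.8 in Nrf1 and 25.1, 27.4 and 15.3 in Nrf2, -0.92). The part of fibroblasts in the matrix differences was not tested.

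Of 26 sarcomere genes, 11 were higher in Nrf2 and 0 higher in Nrf1 libraries, with a median of 0.47. *Tnni3*, the adult cardiac troponin I, had 2018, 2041 and 2031 in Nrf1 and 4664, 4685 and 4545 in Nrf2 (log2 fold change 1.19 ± 0.027, adjusted p = 9.91e-17). *Tnni1*, its fetal form, had 1099.8, 1074 and 1083 in Nrf1 and 2727, 2863 and 2771 in Nrf2 (log2 fold change 1.36 ± 0.033, adjusted p = 2.79e-16). Both forms thus differed in the same direction. *Myom2*, a protein of the M-band, had 478, 548 and 507 in Nrf1 and 1139.9, 1058 and 1091 in Nrf2 (log2 fold change 1.10 ± 0.052), and *Myom1* differed by 0.92 ± 0.033. *Tcap*, a cap on titin at the Z-disc, and *Myl7*, the atrial light chain, differed by 1.37 and 0.88. For *Tnni3*, *Tnni1* and *Myom2* the group mean lay below LacZ in Nrf1 and above LacZ in Nrf2 libraries (0.512 and 1.17, 0.524 and 1.35 and 0.634 and 1.37). Of 21 cytosolic heat shock proteins, 2 small ones abundant in muscle were higher in Nrf2 libraries. *Hspb6* had 976, 964 and 974 in Nrf1 and 2861, 2865 and 2776 in Nrf2 (log2 fold change 1.54 ± 0.032, adjusted p = 3.49e-17), and *Cryab* had 9589.8, 9521 and 9952 in Nrf1 and 14404, 14713 and 14679 in Nrf2 (log2 fold change 0.59 ± 0.021), just over the limit. The call of *Cryab* was lost when fold changes were centred on the median gene, with total-read scaling, and without library a of Nrf1 (0.58) or library b of Nrf1 (0.58).

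In calcium handling, 4 of 21 genes were higher in Nrf2 libraries. *Casq1*, a calsequestrin, had 1151, 1119 and 1143 in Nrf1 and 2665, 2680.1 and 2715 in Nrf2 (log2 fold change 1.24 ± 0.032, adjusted p = 5.78e-16). *Hrc*, a histidine-rich protein of the sarcoplasmic reticulum, had 52.7, 55.2 and 59.9 in Nrf1 and 188, 184 and 195 in Nrf2 (log2 fold change 1.74 ± 0.11). *Cacna1g*, a T-type calcium channel, and *Trdn*, triadin, differed by 0.81 and 0.65. *Atp2a2*, the gene of the calcium pump SERCA2, was not called, with 18297, 18762 and 18722 in Nrf1 and 20884, 21103 and 20942 in Nrf2 (log2 fold change 0.17 ± 0.017). Natriuretic and hypertrophy genes were split, with 2 of 16 higher in Nrf2 and 4 higher in Nrf1 libraries. *Nppb*, brain natriuretic peptide, had 5685, 5858 and 5995 in Nrf1 and 3448, 3463 and 3618 in Nrf2 (log2 fold change -0.74 ± 0.028, adjusted p = 1.28e-13). *Myh7*, the slow myosin heavy chain, had 7473, 7772 and 7806 in Nrf1 and 13253, 13396 and 13366 in Nrf2 (log2 fold change 0.80 ± 0.021, adjusted p = 1.09e-15), and so pointed in the opposite direction. *Npr3*, the natriuretic peptide clearance receptor, was higher in Nrf1 libraries (528, 555 and 598 in Nrf1 and 294, 299 and 339 in Nrf2, -0.85), and *Corin*, which activates the peptides, was higher in Nrf2 libraries (0.75). Of 23 channel genes, *Kcnk3*, a background potassium channel, was higher in Nrf1 libraries (421, 418 and 423 in Nrf1 and 183, 227 and 221 in Nrf2, adjusted p = 4.89e-09). *Kcnj12* and *Gjc1* were higher in Nrf2 libraries (1.16 and 0.79). Of 25 cardiac transcription factors, *Isl1*, *Tbx3* and *Tbx18* were higher in Nrf2 and *Hand1* and *Prox1* higher in Nrf1 libraries (2.31, 1.12, 0.99, -1.27 and -0.62). *Isl1* was at low levels, with 3.98, 3.07 and 5.99 in Nrf1 and 32.9, 23.8 and 19.4 in Nrf2. It was under 1 CPM in every Nrf1 library and was tested only through its Nrf2 reads, so its call could point only toward Nrf2. *Gata4* was not called (-0.26). The call of *Prox1* was lost without library a of Nrf2 (-0.58).

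Of 9 neuronal and Schwann cell markers tested, 8 were higher in Nrf2 and 0 higher in Nrf1 libraries, and the summed level of 16 listed genes was 701 to 727 in Nrf1 and 1655 to 1751 in Nrf2 libraries. *Nefm*, a neurofilament subunit, had 134, 131 and 92.3 in Nrf1 and 526, 641 and 562 in Nrf2 (log2 fold change 2.28 ± 0.11, adjusted p = 7.82e-12). *S100b*, a calcium-binding protein of glia, had 32.8, 35.8 and 36 in Nrf1 and 160.2, 109 and 137 in Nrf2 (log2 fold change 1.91 ± 0.15), and *Elavl4*, an RNA-binding protein of neurons, *Stmn2* and *Gap43* differed by 1.99, 1.52 and 1.48. *Stmn2* and *Gap43* were under 1 CPM in every Nrf1 library and were tested only through their Nrf2 reads, so a call could point only toward Nrf2. The tested member that was not called was *Prph* (-0.10), and the rest of the 16 listed genes had too few reads to be tested. The defining markers *Elavl3*, *Snap25*, *Syp*, *Th* and *Sox10* were under 10 normalized counts in every library. Smooth muscle markers differed by member and in sum in opposite directions. Of 11 tested, 5 were higher in Nrf2 libraries, among them *Myh11* (858, 869 and 873 in Nrf1 and 1434, 1389 and 1685 in Nrf2, 0.79) and *Cnn1* (0.70), yet the summed level was 67836 to 68873 in Nrf1 and 55613 to 59239 in Nrf2 libraries, since it is mostly *Acta2* and *Tagln*, which were not called and differed by -0.36 and -0.48.

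Single enzymes of the metabolic lists differed. In fatty acid oxidation 3.7% of the genes tested were called toward Nrf2 and 7.41% toward Nrf1, and in glycolysis 11.1% and 0%. Over all genes tested the shares were 10.9% and 4.59%, so these 2 lists as wholes did not stand out. In fatty acid oxidation, *Acadvl*, the very-long-chain acyl-CoA dehydrogenase, had 2973, 2847 and 3142 in Nrf1 and 1368, 1425 and 1420.3 in Nrf2 (log2 fold change -1.09 ± 0.036, adjusted p = 2.96e-14), and *Hadh* differed by -1.14 ± 0.06. Both were higher in Nrf1 libraries. *Acadm*, the medium-chain enzyme, had 1641, 1685 and 1742 in Nrf1 and 2676, 2720.3 and 2616 in Nrf2 (0.66 ± 0.032) and was higher in Nrf2 libraries. The other 24 of 27 genes were not called. In lipid synthesis and storage, 4 of 22 genes were higher in Nrf2 libraries, led by *Dgat2*, which makes triglycerides, with 283, 257 and 230.2 in Nrf1 and 2191, 2170.0 and 2197 in Nrf2 (log2 fold change 3.09 ± 0.059, adjusted p = 9.68e-18), at 0.629 times LacZ in Nrf1 and 5.38 times LacZ in Nrf2. *Scd1* and *Elovl5*, which desaturate and lengthen fatty acids, differed by 0.67 and 0.65. Of 18 genes of prostaglandin synthesis and signalling, 6 were higher in Nrf2 and 1 was higher in Nrf1 libraries. Of the 6, *Ptges* (0.67) and *Ptgir* (0.69) lost their calls with a pseudocount of 5 and in several fits without 1 library. The call of *Ptges* was also lost with voom weights and without the filter on low values, and that of *Ptgir* with the spread shared with LacZ libraries. The cyclooxygenase *Ptgs1* had 269, 217 and 223 in Nrf1 and 1147, 1129 and 1177 in Nrf2 (log2 fold change 2.29 ± 0.069, adjusted p = 6.11e-15). *Ptgs2*, the inducible cyclooxygenase, had 194, 189 and 164 in Nrf1 and 353, 335 and 365 in Nrf2 (log2 fold change 0.94 ± 0.08, adjusted p = 1.18e-08). In glycolysis, 3 of 27 genes were called, *Aldoc*, *Pgam2* and the glucose transporter *Slc2a1* (1.30, 0.87 and 0.59), the last being lost with median centring, total-read scaling, and without library a of Nrf1 (0.57) or library b of Nrf2 (0.55).

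Further lists held from 2 to 4 calls each. Of 21 genes of the Atf4 stress response and serine synthesis, 3 were higher in Nrf2 libraries, among them *Psat1* (208, 188 and 176 in Nrf1 and 391, 302 and 354 in Nrf2, log2 fold change 0.86 ± 0.092, adjusted p = 2.62e-07) and *Mthfd2* (0.83), and the call of *Atf3* (0.62) was lost without library c of Nrf1 (0.55) or library a of Nrf2 (0.58). Of 11 genes of the IGF system, *Igfbp2* (12.9, 7.16 and 9.59 in Nrf1 and 46.8, 42 and 66.3 in Nrf2, log2 fold change 2.28 ± 0.26, adjusted p = 6.24e-07) and *Igfbp4* (1.00), which bind IGFs outside the cell, were higher in Nrf2 libraries. Of 23 p53 targets and apoptosis genes, *Cdkn2a* (1.09), a cell cycle inhibitor, and *Bcl2l11* (0.74), a promoter of apoptosis, were higher in Nrf2 libraries. In the TGF-beta list, *Ltbp3* (0.80) was higher in Nrf2 and *Tgfbi* (-0.88) and *Bmp4* (-0.65) higher in Nrf1 libraries, the last being lost without library b of Nrf2 (-0.55). Of 13 complement genes, 2 were higher in Nrf2 and 2 higher in Nrf1 libraries. *Cd59* and *Cd55*, which both shield cells from complement, differed in opposite directions, *Cd59* having 3309, 3317 and 3364 in Nrf1 and 9043, 9410.4 and 8861 in Nrf2 (1.45) and *Cd55* 1197, 1256 and 1303 in Nrf1 and 759, 761 and 807 in Nrf2 (-0.69). *Ptx3*, pentraxin 3, was also higher in Nrf1 libraries (109, 115 and 126 in Nrf1 and 75.4, 46.6 and 74.5 in Nrf2, -0.85). Of 15 endothelial markers, *Plvap* (1.02), *Lyve1* (0.97) and *Tek* (0.67) were higher in Nrf2 and *Npr3* (-0.85) higher in Nrf1 libraries. *Kdr*, a VEGF receptor, was under the fold limit toward Nrf1 (-0.55), and the summed level of the list overlapped between the groups. The call of *Lyve1* was lost without library c of Nrf2 (0.76), and that of *Tek* without library b of Nrf1 (0.58).

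Several large lists held few calls. Of 81 nuclear genes of respiratory complexes I to V, 2 were higher in Nrf2 libraries, the muscle forms *Cox6a2* (0.88) and *Cox8b* (0.84), and the median was 0.11. Of 67 mitochondrial ribosomal proteins, 4 were higher in Nrf1 and 0 higher in Nrf2 libraries, *Mrpl55*, *Mrpl49*, *Mrpl45* and *Mrpl22* (-0.95, -0.76, -0.60 and -0.59), and the median was -0.16. The call of *Mrpl45* was lost without library b of Nrf2 (-0.57), and that of *Mrpl22* with a pseudocount of 5 and without library a of Nrf1 (-0.58), library b of Nrf1 (-0.58), library a of Nrf2 (-0.57) or library b of Nrf2 (-0.58). Of 80 cytosolic ribosomal proteins, 2 were higher in Nrf2 and 1 was higher in Nrf1 libraries, the latter being *Rplp2* with uneven libraries (751, 178 and 356 in Nrf1 and 131, 142 and 141 in Nrf2). At any fold, 48 of the 80 passed an adjusted p of 0.05 toward Nrf2 and 1 toward Nrf1, with a median of 0.19. The corresponding counts were 42 and 8 of the respiratory genes and 8 and 33 of the mitochondrial ribosomal proteins. Of 39 genes of DNA replication and mitosis, *Ccnd2*, cyclin D2, was higher in Nrf2 (528, 584 and 559 in Nrf1 and 948, 952 and 997 in Nrf2, 0.79) and *Mcm2*, a replicative helicase subunit, higher in Nrf1 libraries (1599, 1615 and 1605 in Nrf1 and 889, 896 and 899 in Nrf2, -0.84), and *Mki67* was not called (0.44). Cholesterol synthesis held 0 calls in 24 genes and a median of 0.21. Chaperones of the endoplasmic reticulum held 1 call in 20 genes, *Sdf2l1* (0.78), with *Hspa5*, the chaperone BiP, at 13916, 14235 and 14187 in Nrf1 and 14019, 13728 and 14203 in Nrf2 (log2 fold change -0.01 ± 0.019).

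**Figure D4:**
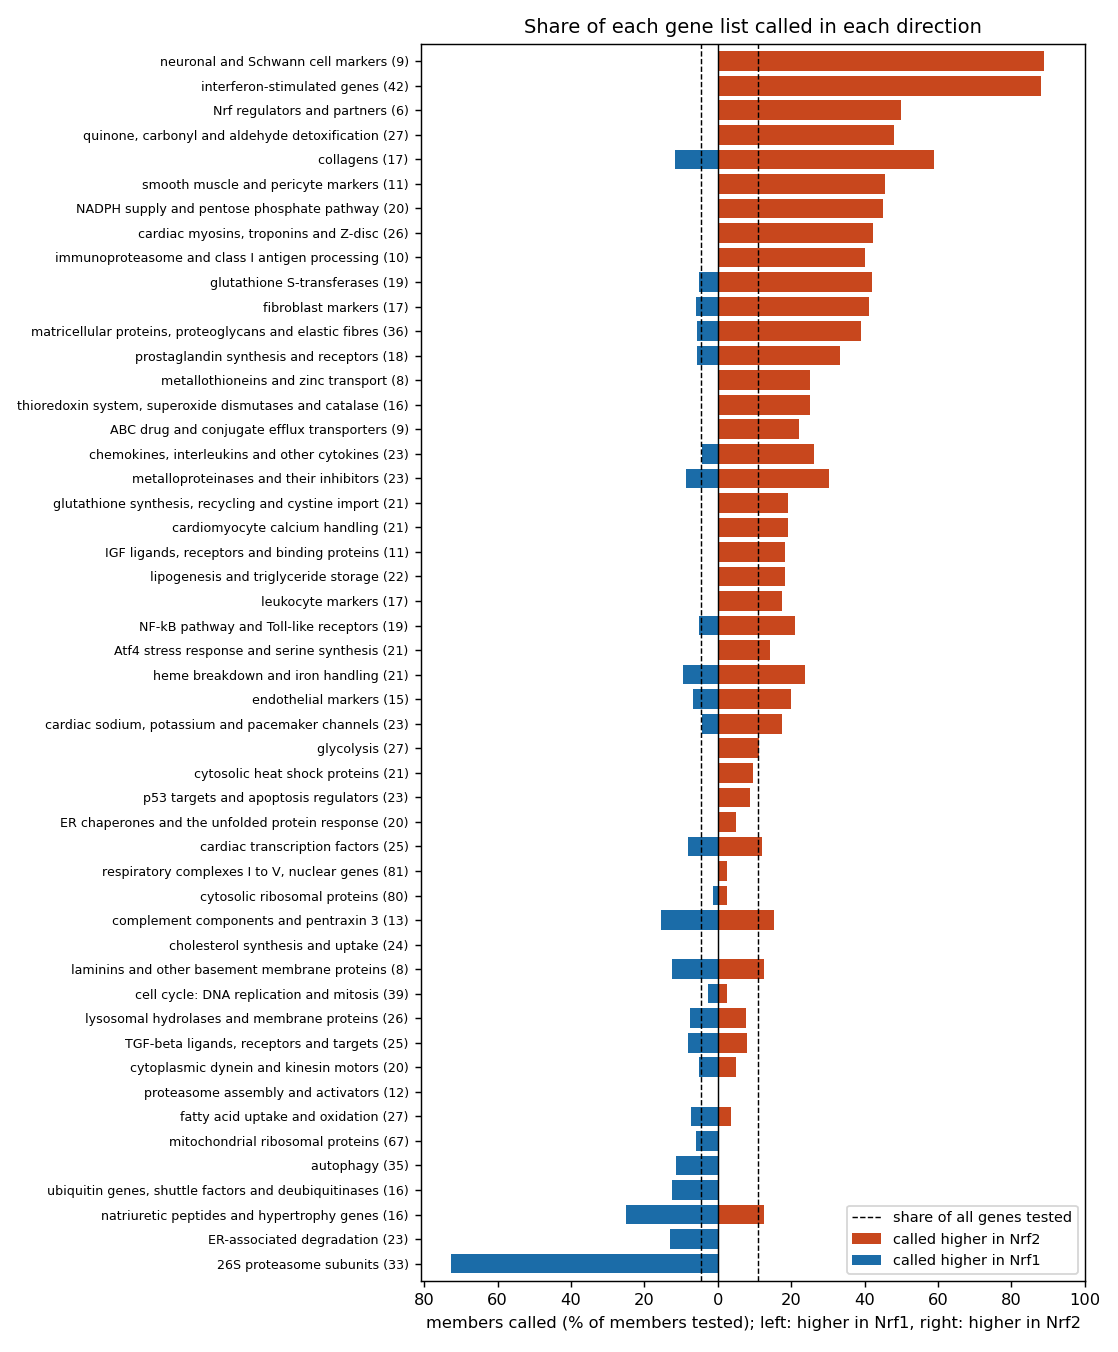
Share of the tested members of each of 50 gene lists (number tested in brackets) called higher in Nrf2 (orange, to the right) or higher in Nrf1 (blue, to the left), in percent. Dashed lines mark the 10.9% and 4.59% of all genes tested, the interferon-stimulated genes reach 37 of 42 at the right, and the 26S proteasome reaches 24 of 33 at the left.

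Ratios to LacZ were taken within each deposited table, which were normalized separately and share the LacZ libraries, and they are given side by side as a description. Over all genes tested the median ratio was 1.01 in Nrf1 and 1.00 in Nrf2 libraries. The median of the 26S proteasome was 2.15 and 1.24, and that of the interferon-stimulated genes 0.124 and 0.368. Glutathione S-transferases were at 1.39 and 2.45, the detoxification list at 1.03 and 1.29, collagens at 0.413 and 0.592, metalloproteinases at 0.433 and 0.775, and sarcomere genes at 0.918 and 1.16. Lists called toward Nrf2 thus lay at different heights, the medians of the detoxification lists above LacZ and those of the interferon and matrix lists below it in both groups.

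**Figure D5:**
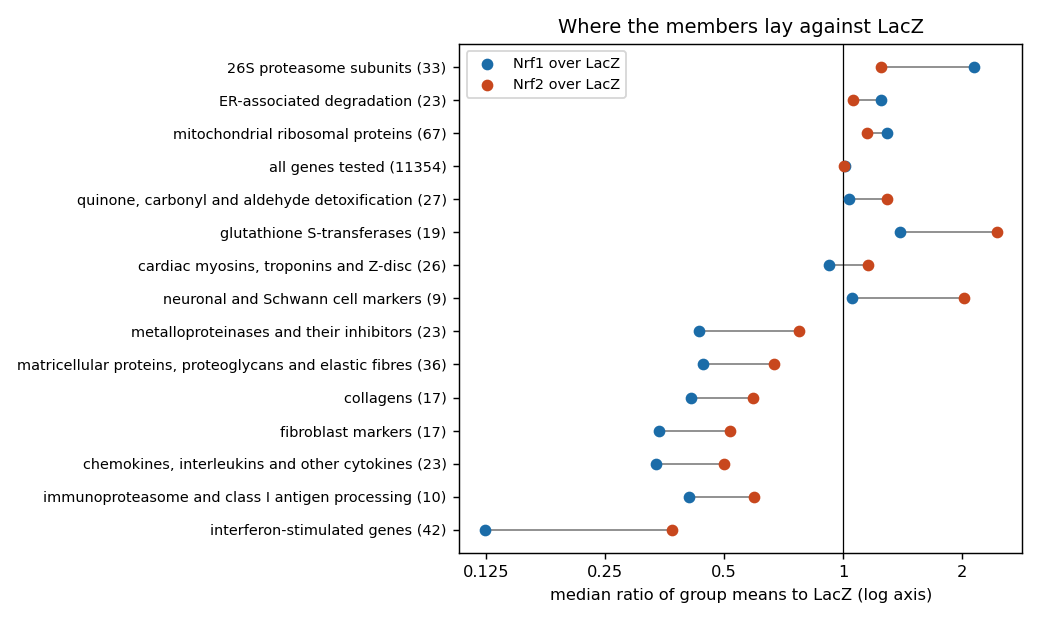
Median ratio of the group mean to the LacZ mean (horizontal log axis) over the members of 14 gene lists and over all genes tested (number tested in brackets), in blue for Nrf1 and in orange for Nrf2. A grey line joins the groups, the vertical line marks LacZ, and the median of all genes tested lies at 1.01 in Nrf1 and 1.00 in Nrf2.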

How the data were processed

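mRNA of NRVMs infected with Adeno-LacZ, Adeno-Nrf1 or Adeno-Nrf2 was sequenced as stranded single-end libraries, 3 per group. According to the methods of the study and the submitters' processing notes, the authors checked reads with FastQC 0.11.4, aligned them with HISAT2 2.0.4, removed duplicates with SAMtools 0.1.18 and counted genes with featureCounts 1.6.0 on the rat genome, and edgeR 3.20.5 is also named. The deposited signal values are the group means of gene counts divided by size factors, set by the authors in 3 tables of 2 groups each. The tables also hold the authors' own fold changes and p-values, which were not used. The removal of duplicates caps the counts of very abundant or short genes.

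Each group mean is a sum of whole reads, each worth a fixed amount per library, and each group appears in 2 tables with different size factors. The reads per library were solved from these means (Python 3.11.15, numpy 2.4.6, pandas 2.3.3, numba 0.67.0). They were found for 14907 of 14908 genes, 25 of them from 1 table alone, and the largest relative residual was 5.7e-15. No mean of the second table was off by more than its last printed digit (0 genes). *Sept2* was not solved. The recovered libraries are named a, b and c and could not be matched to the numbered samples. Total reads per library were 8613988 to 10375045 in Nrf1 and 10216074 to 11982503 in Nrf2, and intervals given for single genes cover counting error only. On simulated reads of 14907 genes, 0 were recovered wrongly.

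Genes with a CPM over 1 in at least 3 of the 6 libraries were tested with limma 3.58.1 (R 4.3.3, trend and two-sided moderated test) on log2(normalized count + 1), which understates the change of low genes. By this filter, a gene under 1 CPM in all libraries of a group was tested only through the other group. Counts of list members include such genes. Genes were called at a Benjamini-Hochberg adjusted p under 0.05 and a fold change above 1.5. In simulated data for this comparison, all 200 genes given a log2 change of 1.5 were called, as was 1 of 11117 genes given none. That change is far above the fold limit, and every simulated gene had the same spread between replicates (dispersion 0.005). Changes near the limit and genes with uneven libraries were not simulated, so these rates do not carry over to them. The gene lists and members were chosen with earlier results of these data known. Named genes were the 15 called genes per direction that differed most, given a group mean of 100 or more, up to 8 genes per direction at 0 in the other group, up to 6 members per list, and genes named by the study. Alternatives were other filters, pseudocounts, scalings, thresholds, a voom fit, a spread shared with LacZ, and each library left out in turn. A few genes are not reported here.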

Additional observations from a re-analysis of the deposited data

How the results depend on the processing

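The number of genes called moved by over 1.5 times when the thresholds or the filter changed. With genes of a mean of at least 100 normalized counts, 554 were higher in Nrf2 and 339 higher in Nrf1 libraries. With no fold change required, the counts were 3271 and 3420, and with a fold change over 2 they were 601 and 125, against 1236 and 521. The other settings left both counts within 1.5 times. They were a minimum mean of 10 (1202 and 517), no filter (1583 and 589), a pseudocount of 0.5 (1245 and 521) or 5 (1173 and 475), centring on the median gene (1216 and 545), scaling to total reads (1215 and 547), a spread shared with the LacZ libraries (1225 and 502), limma-voom on the recovered reads (1245 and 522) and an adjusted p under 0.01 (1128 and 470). Without 1 library the counts were 1182 to 1242 and 511 to 533, of which 1129 to 1159 and 460 to 468 were shared with the full set. No named gene changed direction under any of these settings. The median log2 fold change of 3 lists changed sign under 1 setting each. The median of the Nrf regulators and partners was -0.128 without a filter (0.336 otherwise), and that of cardiac transcription factors was -0.012 at a mean of at least 100 (0.068 otherwise). The median of the TGF-beta list lay between -0.011 and 0.072 when 1 library was left out (0.042 otherwise). The cause of these shifts was not tested. No paired analysis was possible because the recovered libraries carry no replicate number. Depth limited the low end, 3553 genes having too few reads to be tested. Each group had 3 libraries.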

Other observations

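Some genes stood apart in 1 library by over 4 times against both others of its group, and the following were chosen after their values were seen. *Hprt1*, an enzyme of purine salvage, was at 56.7, 5.11 and 122 in Nrf1 and 166, 84.1 and 114 in Nrf2 and was called higher in Nrf2 libraries although the groups overlap. *Sccpdh*, an oxidoreductase, was at 0, 0 and 19.2 in Nrf1 and 23.4, 14.6 and 6.12 in Nrf2 and was likewise called. *Hsp90aa1*, the inducible form of Hsp90, was at 350.0, 44 and 315 in Nrf1 and 382, 519 and 42.9 in Nrf2 and was not called. *Ndufa1*, a subunit of respiratory complex I, was at 2.98, 1.02 and 2.4 in Nrf1 and 381, 309.9 and 5.1 in Nrf2 and was not tested. The cause of these single values was not tested.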
